A study of Mus musculus with 8 samples.

Results

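The B cell receptor complex and its proximal signalling proteins were examined across spleens of 3 mouse genotypes, as 9 named genes of which 8 were measured. The 9 genes are Cd79a, Cd79b, Ms4a1, Cd22, Blnk, Btk, Syk, Lyn and Blk. A gene was taken from the array when a probe set was assigned to it alone by the array's probe annotation, and each of the 8 had 1 such probe set among 19938 genes in all. No probe set was assigned to Lyn alone, so Lyn is not analysed here. All 8 had a mean log2 intensity above the filter on low values (5.01), which left 14953 genes for testing. RNA of splenocytes, the mixed cells of a collagenase- and DNase-digested spleen, was hybridised to 1 Affymetrix Mouse Gene 1.0 ST array per mouse. There were 3 Sle1.3/E2-2het mice, 3 Sle1.3 mice and 2 wild-type (WT) mice, and all were labelled with the C57/B6 strain background. Sle1.3 is given by the labels as a lupus genotype. Sle1.3/E2-2het mice carry that same genotype and are haplodeficient for E2-2, the E protein transcription factor encoded by Tcf4 and needed by plasmacytoid dendritic cells. The submitters describe the plasmacytoid dendritic cells of these mice as non-functional, and no promoter or cell type limiting the E2-2 defect is given in the sources used here. Ages are not given in the sources used here.

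The B cell receptor is a surface immunoglobulin that signals through the CD79A and CD79B chains, whose cytoplasmic tails carry the tyrosine motifs that start the cascade. When antigen clusters the receptor, Src-family kinases such as LYN and BLK phosphorylate these tails, SYK docks on them, and SYK then phosphorylates the adaptor BLNK. BLNK gathers BTK and phospholipase C gamma, which open the calcium and diacylglycerol branches of the response. CD22 is an inhibitory lectin that recruits phosphatases to the receptor, and MS4A1, better known as CD20, is a B cell surface protein linked to calcium entry. In the spleen most of these genes are read mainly from B cells, but SYK and BTK also work in myeloid cells.

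Tcf4 had log2 intensities of 8.18, 8.13 and 9.25 in the arrays labelled Sle1.3/E2-2het replicates 1, 2 and 3. Sle1.3 arrays gave 8.67, 8.63 and 9.06, and WT arrays 9.02 and 8.80. The array labelled Sle1.3/E2-2het replicate 3 thus had the highest Tcf4 of all 8 arrays, which goes against its label. However, the place of the altered allele relative to the probes is not given in the sources used here. This array also had the highest mean of 5 B cell genes listed below (10.76, against 10.60 in Sle1.3 replicate 3). That array and Sle1.3 replicate 3 also stood apart in technical terms, since their lowest linear values lay at 10.9 to 11.2, while the minimum of each remaining array was 4.57 to 5.11. Their median log2 values were 6.17 each, against 5.83 to 5.95 in the remaining arrays. These 2 arrays are called the second array set and the other 6, with 2 mice of each genotype, the first. The part of array set or cell make-up in the Tcf4 values was not tested. Xist, the transcript of the inactive X of females, gave log2 values of 3.79, 4.29 and 11.82 for Sle1.3/E2-2het spleens, 10.77, 10.68 and 11.90 for Sle1.3 spleens, and 4.11 and 3.75 for WT spleens. Sle1.3 replicate 3 is labelled male and had a female level. By Xist, Sle1.3 against WT was females against males in every array, so genotype and sex cannot be told apart there, while Sle1.3/E2-2het against WT in the first set was males against males. Sle1.3/E2-2het against Sle1.3 was males against females in the first set, so genotype and sex cannot be told apart there either. In the second set both arrays had a female level. The interquartile range of log2 values was 2.41 to 2.57 in the arrays of both Sle1.3 genotypes, against 2.77 and 2.97 in WT. Differences below come from limma with the array set as a term, and p-values measure the spread between these arrays, whose number limits the precision.

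**Figure D1:**
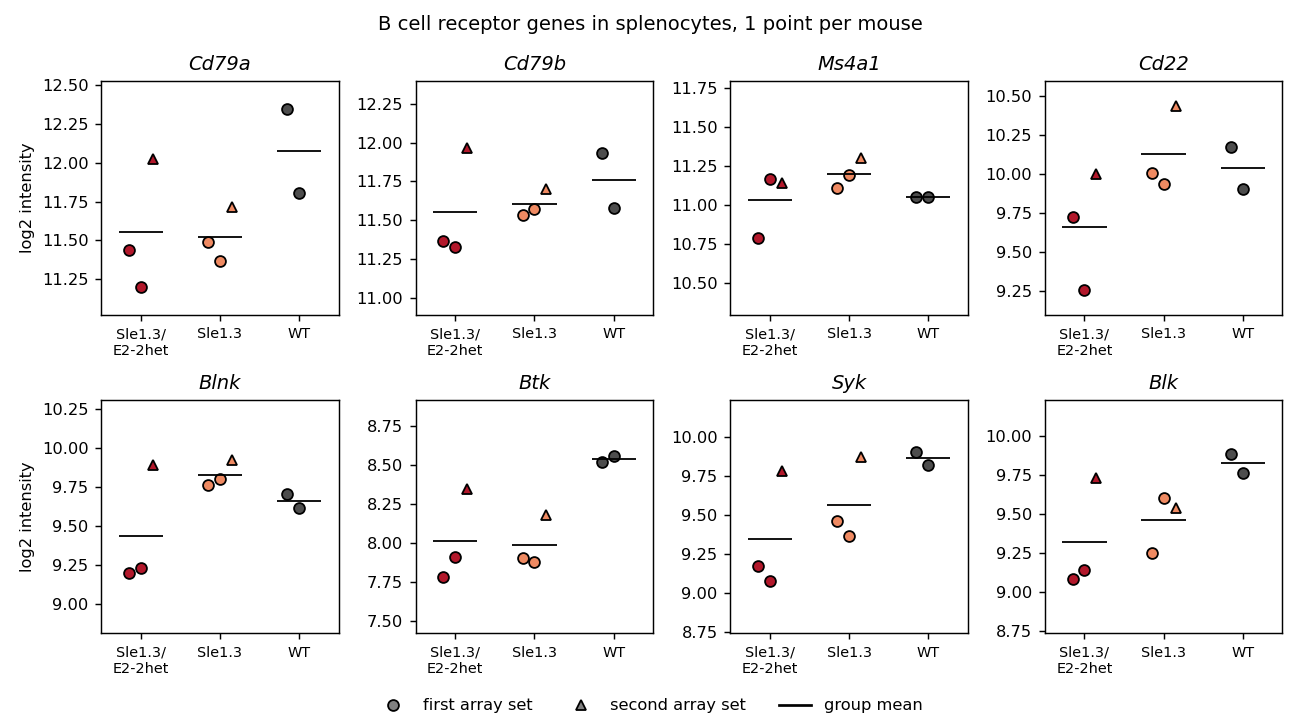
Log2 intensity (y axis, spanning 1.5 log2 units in every panel) of the 8 measured genes in each mouse, with genotypes from left to right Sle1.3/E2-2het (n = 3), Sle1.3 (n = 3) and WT (n = 2); circles are the first array set, triangles the second, and lines are group means. In the first set 7 of the 8 genes were lower in both Sle1.3/E2-2het mice than in both WT mice, as were 42.4% of all tested genes, and Ms4a1 was the exception.

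Sle1.3/E2-2het spleens had lower levels of 5 of the 8 receptor genes than WT spleens: Cd79a, Cd22, Btk, Syk and Blk. The fitted decreases ran from 0.54 to 0.71 on the log2 scale, which is 1.46-fold to 1.63-fold. Blnk, Cd79b and Ms4a1 did not pass the test, and none of the 8 was called higher. Over all 14953 tested genes 23.4% were called lower in this comparison, and the median difference was -0.09, against -0.59 for the 8 receptor genes. In the first array set alone, where both genotypes were male by Xist, 6 of 8 were called lower, now with Blnk, against 23.5% of all genes.

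Among the kinases, Syk, the tyrosine kinase that docks on the receptor tails, was 9.17, 9.07 and 9.78 in Sle1.3/E2-2het spleens, against 9.91 and 9.82 in WT mice. All 3 Sle1.3/E2-2het values lay below both WT values, with replicate 3 just under them. The difference was -0.71 (SE 0.14, adjusted p = 0.00390). Btk, the X-linked Tec-family kinase whose loss causes agammaglobulinaemia in humans, was 7.78, 7.91 and 8.35 in Sle1.3/E2-2het spleens, against 8.52 and 8.55 in WT mice. Again the groups did not overlap, and the WT values differed by less than any neighbouring pair in the other group. The Btk difference was -0.65 (SE 0.14, adjusted p = 0.00532). Blk, a Src-family kinase largely restricted to B cells, was 9.08, 9.14 and 9.73 in Sle1.3/E2-2het spleens, against 9.89 and 9.76 in WT mice. The groups were separate, but only by the narrow gap between 9.73 and 9.76, and the difference was -0.63 (SE 0.17, adjusted p = 0.0161).

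Of the signalling chains, Cd79a was 11.44, 11.20 and 12.02 in Sle1.3/E2-2het spleens, against 12.34 and 11.80 in WT mice. The groups overlapped through Sle1.3/E2-2het replicate 3, which exceeded WT replicate 2, and the fit with the array set gave -0.68 (SE 0.19, adjusted p = 0.0167). Cd79b, the partner chain, was 11.37, 11.33 and 11.96, against 11.93 and 11.58 in WT mice. Here too only replicate 3 overlapped with WT. Its difference of -0.33 (SE 0.16, adjusted p = 0.133) did not pass, with a 95% interval from -0.69 to 0.03.

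The surface modulators divided. Cd22 was 9.72, 9.25 and 10.00 in Sle1.3/E2-2het spleens, against 10.18 and 9.91 in WT mice, a difference of -0.54 (SE 0.17, adjusted p = 0.0274). Ms4a1 was 10.79, 11.17 and 11.14, against 11.05 and 11.05 in WT mice, so that 2 Sle1.3/E2-2het values were above WT and 1 was below. Its difference was -0.07 (SE 0.15, adjusted p = 0.721), with a 95% interval from -0.40 to 0.25. The adaptor gene Blnk was 9.20, 9.23 and 9.89, against 9.70 and 9.62 in WT mice, with 2 values well below WT and replicate 3 above it. It differed by -0.36 (SE 0.16, adjusted p = 0.0919) over all arrays, and within the first set alone by -0.45 (SE 0.15, adjusted p = 0.0366).

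The groups did not overlap, with Sle1.3/E2-2het below WT, for 3 of the 8 genes over all arrays (Btk, Syk and Blk), against 23.2% of all tested genes. In the first set the same was true of 7 of 8, against 42.4%. The 5 calls depended on how arrays were compared. With no term for the array set 0 of 8 passed in limma, against 3.74% of all genes called lower, and after quantile normalization, which gives every array the same spread, 1 of 8 passed, Syk (-0.39, adjusted p = 0.0459), where 6.67% of all genes were called lower. Without WT replicate 1 or without Sle1.3/E2-2het replicate 2 only Btk and Syk were called, and without WT replicate 2 Btk, Cd79a and Syk were. Blk also lost its call without Sle1.3/E2-2het replicate 1.

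**Figure D2:**
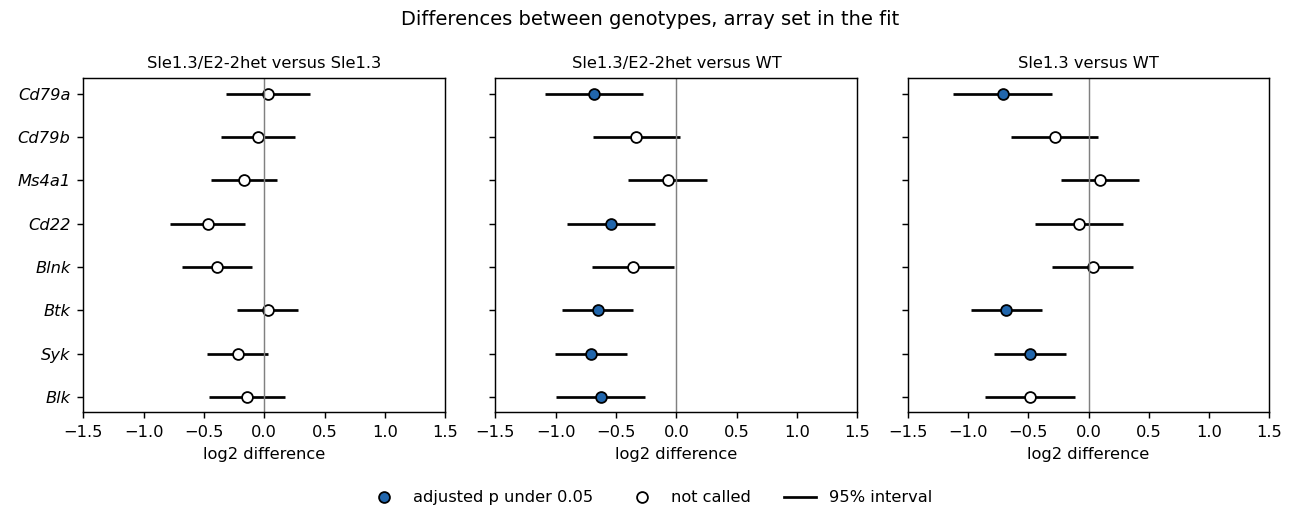
Log2 difference (x axis) of each gene in 3 comparisons, with the array set in the fit; points are estimates, bars 95% intervals, and filled points passed an adjusted p of 0.05 in limma. Against WT, 5 genes were called lower in Sle1.3/E2-2het and 3 in Sle1.3, and none was called in Sle1.3/E2-2het against Sle1.3.

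Sle1.3 spleens, compared with the same 2 WT mice, had lower Cd79a, Btk and Syk, by 0.71, 0.68 and 0.49 on the log2 scale, while Ms4a1, Cd22 and Blnk differed by -0.08 to 0.09 and did not pass. The 3 genes called are 3 of 8, against 16.5% of all tested genes called lower. Both comparisons use the same WT arrays, so the values of the 2 lupus genotypes against WT are not independent of each other. The median difference was -0.38 for the 8 genes and -0.06 for all tested genes.

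Btk was 7.90, 7.87 and 8.18 in Sle1.3 mice, against 8.52 and 8.55 in WT mice, with no overlap (-0.68, SE 0.14, adjusted p = 0.00523). It was the only 1 of the 8 that stayed called with each array left out in turn. Cd79a was 11.49, 11.37 and 11.71 in Sle1.3 mice, against 12.34 and 11.80 in WT mice, again with no overlap. It differed by -0.71 (SE 0.19, adjusted p = 0.0183). Syk was 9.46, 9.36 and 9.87 in Sle1.3 mice, against 9.91 and 9.82 in WT mice, where Sle1.3 replicate 3 lay between the WT mice. Its difference was -0.49 (SE 0.14, adjusted p = 0.0239), and it did not pass in the first set alone (-0.45, adjusted p = 0.0617).

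Blk was 9.25, 9.61 and 9.54 in Sle1.3 mice, all below the WT values of 9.89 and 9.76. It missed the threshold (-0.48, SE 0.17, adjusted p = 0.0578) and passed with the replicate number as a block (adjusted p = 0.0432). That block also grouped the WT arrays by number, and whether WT numbers pair with the others was not examined. Cd79b was 11.54, 11.57 and 11.70, against 11.93 and 11.58 in WT mice, and the groups overlapped (-0.28, SE 0.16, adjusted p = 0.230). The other 3 genes pointed no single way.

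Ms4a1 was 11.11, 11.19 and 11.30 in Sle1.3 mice, each above the WT values of 11.05 and 11.05, yet the difference of 0.09 (SE 0.15, adjusted p = 0.671) did not pass. Blnk was 9.77, 9.80 and 9.92 in Sle1.3 mice, also above WT (9.70 and 9.62), with a fitted difference of 0.03 (SE 0.16, adjusted p = 0.897). Cd22 was 10.01, 9.94 and 10.44 in Sle1.3 mice, against 10.18 and 9.91 in WT mice, and overlapped (-0.08, SE 0.17, adjusted p = 0.769). Over all arrays, 3 of 8 genes (Cd79a, Btk and Blk) had every Sle1.3 value below both WT values, against 24.4% of all tested genes. For 2 of 8 (Ms4a1 and Blnk) every Sle1.3 value was above, a count near the 21.5% of all tested genes. Within the first set, 5 of 8 genes had both Sle1.3 mice below both WT mice, against 37.5% of all tested genes. None of the 8 passed in limma without the array set term, where 3.22% of all genes were called lower, or after quantile normalization, where 5.97% were. After the second, Btk had -0.40 (adjusted p = 0.0524) and Cd79a -0.56 (adjusted p = 0.0661). Without WT replicate 1 the count was 1, Btk. Without Sle1.3 replicate 1, without either second-set array or without WT replicate 2 the calls were Btk and Cd79a, and without Sle1.3 replicate 2 they were Btk, Cd79a and Blk.

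When Sle1.3/E2-2het spleens were set against Sle1.3 spleens, the comparison that bears on the lost E2-2 copy, none of the 8 receptor genes passed in limma, where 0.615% of all genes were called. By Xist, its first-set arrays were males against females, so genotype and sex cannot be told apart in them. At an unadjusted p under 0.05, 2 of the 8 were lower, Cd22 and Blnk, against 6.92% of all genes. The median difference of the 8 was -0.16, and that of all tested genes was 0.0017. The largest estimates belonged to Cd22, at -0.47 (SE 0.14, adjusted p = 0.214, 95% interval -0.78 to -0.16), and Blnk, at -0.39 (SE 0.13, adjusted p = 0.281, interval -0.68 to -0.10). With the replicate number as a block Cd22 had an adjusted p of 0.0744 and Blnk 0.204.

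Matched by replicate number, which was taken to pair the arrays of these genotypes, Cd22 was lower in the array labelled Sle1.3/E2-2het of each pair, by 0.28, 0.68 and 0.44. In the third pair the array labelled Sle1.3/E2-2het had the higher Tcf4 (9.25, against 9.06 in the array labelled Sle1.3), which goes against the labels, and the signs of that pair stand as labelled and would turn if its labels were exchanged. Blnk was lower by 0.57, 0.57 and 0.03, with the 2 wider gaps in the first array set. Syk was lower by 0.29, 0.29 and 0.09, and Ms4a1 by 0.32, 0.02 and 0.16. By label, these 4 genes were lower in 3 of 3 pairs. The share of all tested genes lower in 3 of 3 pairs was not computed, so that count cannot be weighed. Cd79a, Cd79b and Blk were lower in both first-set pairs and higher in the second-set pair, where their differences were 0.30, 0.26 and 0.20. Btk was lower in 1 of 3 pairs. In the first set alone, both Sle1.3/E2-2het mice lay below both Sle1.3 mice for 5 of 8 genes (Cd79b, Cd22, Blnk, Syk and Blk), against 25.3% of all tested genes, and none of the 8 was called there, with 0.589% of all genes called. These first-set mice were males against females by Xist. Over all arrays none of the 8 separated these genotypes, against 4.33% of all genes with Sle1.3/E2-2het lower. Whether the difference between genotypes itself differed between array sets was not tested.

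The intervals show how precise the remaining estimates were. Sle1.3/E2-2het minus Sle1.3, the estimates for Cd79a, Cd79b and Btk were 0.03 (95% interval -0.32 to 0.38), -0.05 (-0.36 to 0.26) and 0.03 (-0.22 to 0.28). For Syk it was -0.22 (-0.47 to 0.03), for Ms4a1 -0.17 (-0.44 to 0.11) and for Blk -0.14 (-0.46 to 0.17). Each of these intervals covered 0, so none of these estimates could be told from 0 at that level with 3 mice per genotype.

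The 8 genes moved together across the arrays, with Ms4a1 apart. Each gene was centred on its mean over the 8 arrays and the centred values were averaged. Sle1.3/E2-2het arrays had profile values of -0.32, -0.36 and 0.22, with -0.08, -0.06 and 0.19 in the Sle1.3 arrays and 0.30 and 0.12 in the WT arrays. The 2 second-set arrays lay between the WT arrays, and the first-set arrays of both lupus genotypes lay below WT. As a description over 8 arrays that share array sets and sexes, Syk followed the average of the other 7 most closely (Pearson r = 0.964) and Ms4a1 least (r = 0.316). The pair with the highest r was Cd79a and Cd79b (0.901), which encode the 2 chains of 1 heterodimer, and the pair with the lowest was Cd79a and Ms4a1 (-0.0053).

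Among 14945 other tested genes, the 5 with the highest Pearson correlation with this profile over the 8 arrays were Haao (r = 0.992), Egr3 (0.986), Rftn1 (0.986), Gpank1 (0.984) and Mapk1ip1 (0.981). Rftn1, which encodes the lipid raft protein raftlin, was 7.57, 7.57 and 8.43 in Sle1.3/E2-2het mice, 8.06, 7.94 and 8.54 in Sle1.3 mice and 8.55 and 8.35 in WT mice. As in the receptor gene profile, by which Rftn1 was picked, the 2 first-set Sle1.3/E2-2het mice were lowest and the first-set Sle1.3 mice next. Egr3, an immediate early zinc finger factor, was 8.11, 8.12 and 8.54 in Sle1.3/E2-2het mice, 8.25, 8.29 and 8.50 in Sle1.3 mice and 8.53 and 8.42 in WT mice.

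Other B cell genes moved with the receptor genes. In a bulk spleen sample, fewer B cells and less of a transcript per B cell cannot be told apart, so each array was also centred on the mean of 5 B cell genes outside the receptor group (Pax5, Ebf1, Cd72, Fcrla and Bank1). That mean was 10.19, 9.94 and 10.76 in Sle1.3/E2-2het mice, 10.28, 10.35 and 10.60 in Sle1.3 mice and 10.64 and 10.43 in WT mice. The mean of the 8 receptor genes minus it was -0.37, -0.15 and -0.40 in Sle1.3/E2-2het mice, -0.22, -0.26 and -0.26 in Sle1.3 mice and -0.20 and -0.16 in WT mice. The Sle1.3/E2-2het values reached to both sides of the Sle1.3 ones, and 1 of the 3 was above both WT values.

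Differences on this scale are given as values with no test, since subtracting the same marker mean from every gene led limma to 1 common variance for all genes. All genes together shifted up on it, by a median of 0.31 in Sle1.3/E2-2het against WT and 0.23 in Sle1.3 against WT. Relative to the other B cell genes, Syk differed by -0.31, Cd79a by -0.28, Btk by -0.25, Blk by -0.23 and Cd22 by -0.14 in Sle1.3/E2-2het against WT. Ms4a1 was at 0.33, Cd79b at 0.07 and Blnk at 0.04. In Sle1.3 against WT, Cd79a had -0.43, Btk -0.40, Syk -0.20, Blk -0.20, Cd79b 0.0036, Cd22 0.21, Blnk 0.32 and Ms4a1 0.38. For Sle1.3/E2-2het minus Sle1.3, Cd22 had -0.35, Blnk -0.28, Syk -0.11, Ms4a1 -0.05, Blk -0.03, Cd79b 0.07, Cd79a 0.14 and Btk 0.14. The B cell list shares Cd72 and Bank1 with the signalling lists described next.

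**Figure D3:**
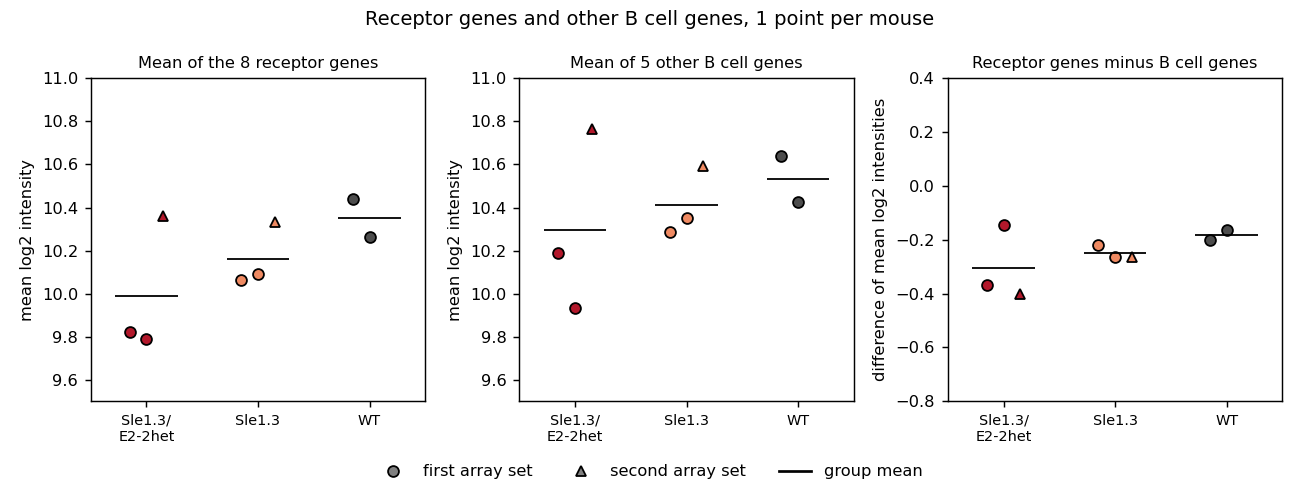
Mean log2 intensity (y axis) of the 8 receptor genes (left) and of 5 other B cell genes (middle), and their difference (right), in each mouse of the Sle1.3/E2-2het, Sle1.3 and WT groups; circles are the first array set, triangles the second, lines group means. The first-set Sle1.3/E2-2het mice were lowest in both means, and the differences of all 8 mice lay between -0.40 and -0.15.

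Downstream of the receptor, 35 further genes were taken as 20 coreceptors and activating effectors and 15 inhibitory receptors, phosphatases and ligases. Of these, 18 and 15 were analysed here. In Sle1.3/E2-2het against WT, 9 of 18 activating and 9 of 15 inhibitory genes fell and none rose, against 23.4% of all genes called lower. The list medians were -0.41 and -0.55. In Sle1.3 against WT, 6 of 18 activating and 3 of 15 inhibitory genes fell, against 16.5% of all genes called lower, and 1 activating gene rose, against 7.46% called higher. The inhibitory count is near the share of all genes. The list medians here were -0.37 and -0.31. After quantile normalization 4 genes over both lists were lower in Sle1.3/E2-2het against WT, where 6.67% of all genes were. In Sle1.3 against WT 4 were then lower, against 5.97% of all genes, and 1 was higher, against 6.45%.

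The inhibitory genes with the smallest p against WT were Siglecg, Cblb and Inpp5d. Siglecg encodes a CD22-related sialic acid receptor that restrains calcium signalling. It was 7.36, 7.43 and 8.20 in Sle1.3/E2-2het mice, 7.47, 7.53 and 8.10 in Sle1.3 mice and 8.64 and 8.69 in WT mice. No lupus-genotype value reached WT, and the differences from WT were -1.24 (SE 0.13, adjusted p = 0.000285) in Sle1.3/E2-2het and -1.20 (SE 0.13, adjusted p = 0.000467) in Sle1.3. Cblb encodes a ubiquitin ligase that limits antigen receptor signalling. It was 9.55, 9.20 and 10.01 in Sle1.3/E2-2het mice, 9.53, 9.72 and 9.62 in Sle1.3 mice and 10.91 and 10.72 in WT mice. Its differences from WT were -1.33 (SE 0.19, adjusted p = 0.000915) and -1.30 (SE 0.19, adjusted p = 0.00126).

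Inpp5d encodes SHIP1, the inositol phosphatase that inhibitory receptors recruit. It was 9.31, 8.96 and 9.65 in Sle1.3/E2-2het mice, 9.43, 9.41 and 9.45 in Sle1.3 mice and 10.36 and 10.34 in WT mice, with both lupus genotypes wholly below WT. The differences from WT were -1.13 (SE 0.16, adjusted p = 0.00109) and -1.01 (SE 0.16, adjusted p = 0.00209). All 3 stayed called lower against WT after quantile normalization in both lupus genotypes. With no array set term Siglecg lost its call in Sle1.3/E2-2het (adjusted p = 0.0511) and in Sle1.3 (adjusted p = 0.0648), and over all alternatives with a usable test adjusted p reached 0.0848 and 0.163 for Siglecg and, for Inpp5d in Sle1.3 against WT, 0.0700. They are also expressed outside B cells to differing degrees, Cblb and Inpp5d broadly in leukocytes. Csk, Pag1 and Cbl, which restrain Src-family kinases or target them for degradation, fell by 0.58, 0.75 and 0.55 in Sle1.3/E2-2het against WT and did not pass in Sle1.3 against WT. None of these 3 calls held after quantile normalization or with no array set term.

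On the activating side, Dapp1, an adaptor that binds phosphoinositides, fell by 1.03 in each lupus genotype against WT (SE 0.23, adjusted p = 0.00747 in Sle1.3/E2-2het and 0.00913 in Sle1.3). Nfatc1, a calcium-controlled transcription factor, fell by 0.82 (adjusted p = 0.00547) in Sle1.3/E2-2het and by 0.66 (adjusted p = 0.0174) in Sle1.3. Prkcb, the protein kinase C of the BTK branch, fell by 0.61 and 0.53, and Pik3cd, the leukocyte PI3 kinase subunit, by 0.60 and 0.46. Nfatc2 and the PI3 kinase adaptor gene Pik3ap1 fell by 0.77 and 0.66 in Sle1.3/E2-2het against WT. In Sle1.3 against WT Pik3ap1 was also called lower (-0.45, adjusted p = 0.0442), and Nfatc2 did not pass (-0.40, adjusted p = 0.104). Pik3r1, a regulatory subunit of PI3 kinase, fell by 0.76 (SE 0.17, adjusted p = 0.00796) in Sle1.3 against WT. Of these activating calls, after quantile normalization Pik3ap1 in Sle1.3/E2-2het (adjusted p = 0.0438) and Pik3r1 in Sle1.3 (adjusted p = 0.0483) held and the others were lost, Dapp1 with 0.0782 in Sle1.3/E2-2het and 0.0596 in Sle1.3. With no array set term Nfatc2 in Sle1.3/E2-2het held (adjusted p = 0.0499) and the others were lost, and Pik3cd in Sle1.3 was called in 3 of 8 fits that left out 1 array.

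Rasgrp3, which couples diacylglycerol to Ras in B cells, was the 1 gene of the 2 lists that rose in Sle1.3 against WT (0.49, SE 0.15, adjusted p = 0.0389). The call was lost with no array set term (adjusted p = 0.114), without either WT array, and without Sle1.3 replicate 1 or 2, and adjusted p reached 0.382 over the alternatives. It was 9.16, 9.0 and 9.66 in Sle1.3/E2-2het mice, 9.91, 9.88 and 9.98 in Sle1.3 mice and 9.30 and 9.35 in WT mice. Every Sle1.3 value lay above every value of the other genotypes. Of Sle1.3/E2-2het against Sle1.3, limma called no gene of either list, against 0.615% of all genes called. At an unadjusted p under 0.05 there were 6 lower genes and 1 higher gene of the 2 lists. Of all genes, 6.92% were lower at that unadjusted p and 10.2% passed it in either direction. Rasgrp3 came closest, at -0.65 (SE 0.13, adjusted p = 0.0526), and it was called with the replicate block, in the first set alone and after quantile normalization. In the first set this comparison cannot tell genotype from sex. Next were Vav1, an exchange factor for Rac (-0.48, adjusted p = 0.176), and Pik3r1 (0.47, adjusted p = 0.208), and among inhibitory genes Cd72 (-0.51, adjusted p = 0.211), Csk (-0.28, adjusted p = 0.434) and Dok3 (-0.25, adjusted p = 0.528).

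**Figure D4:**
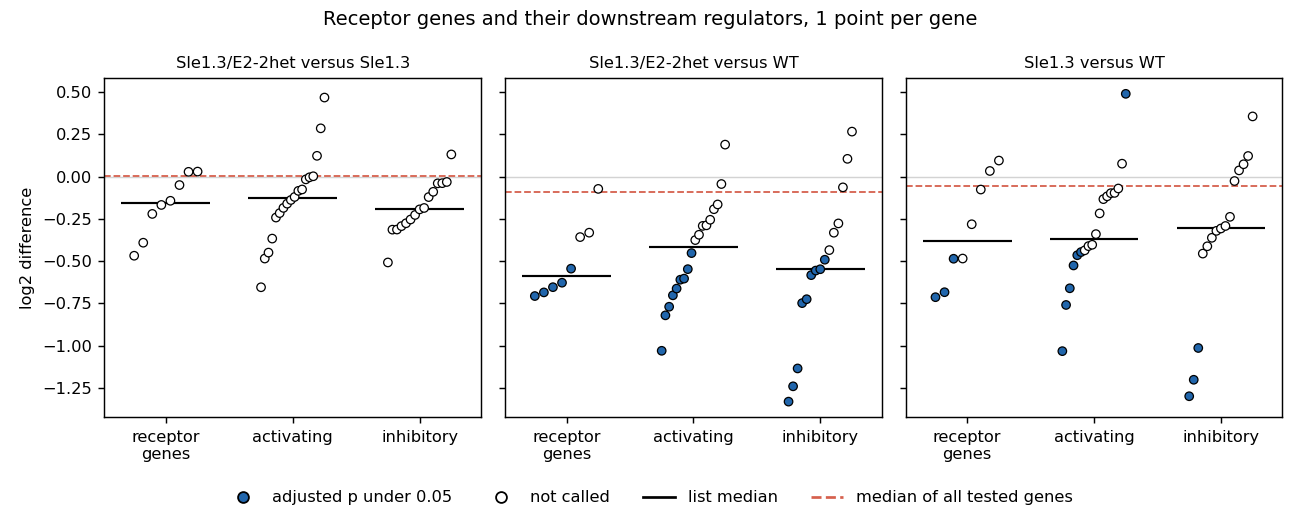
Log2 difference (y axis) of each measured gene among the 8 receptor genes, 18 activating and 15 inhibitory genes in 3 comparisons; filled points passed an adjusted p of 0.05 in limma, black lines are list medians and dashed lines the median of all tested genes. Against WT most genes of all 3 groups lay below the dashed line, and in Sle1.3/E2-2het against Sle1.3 none was called.

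Transcripts of other spleen cells also differed between the genotypes, though not for every marker list. All 10 neutrophil markers rose against WT in both lupus genotypes, against 10.7% of all genes called higher in Sle1.3/E2-2het and 7.46% in Sle1.3. They had summed linear intensities of 9500 to 26354 in Sle1.3/E2-2het mice, 8714 to 28990 in Sle1.3 mice and 2137 to 3066 in WT mice. Monocyte and macrophage markers gave 2243 to 3335 in Sle1.3/E2-2het, 2431 to 3901 in Sle1.3 and 1526 to 2046 in WT, with 4 of 8 called higher in each lupus genotype, against those same shares of 10.7% and 7.46%. Erythroid markers had sums of 1202 to 2425 in Sle1.3/E2-2het spleens, 501 to 695 in Sle1.3 spleens and 597 to 601 in WT spleens, and 2 of 5 were called higher in Sle1.3/E2-2het than in Sle1.3, against 0.154% of all genes. Plasma cell markers gave 6527 to 8255 in Sle1.3/E2-2het, 6999 to 9129 in Sle1.3 and 5404 to 6198 in WT. Their mean log2 values overlapped between Sle1.3/E2-2het (8.89, 8.79 and 9.49) and WT (8.98 and 9.07), with both first-set Sle1.3/E2-2het mice below WT. T cell markers gave 3049 to 4938 in Sle1.3/E2-2het, 3319 to 4062 in Sle1.3 and 4203 to 4675 in WT. Natural killer cell markers gave 1111 to 1702 in Sle1.3/E2-2het, 906 to 1069 in Sle1.3 and 1783 to 1996 in WT, but their mean log2 values overlapped, at 7.03, 7.39 and 7.77 in Sle1.3/E2-2het and 7.19 and 7.58 in WT. For plasmacytoid dendritic cell markers the sums were 904 to 1311 in Sle1.3/E2-2het, 1039 to 1198 in Sle1.3 and 2029 to 2505 in WT, with every lupus-genotype mouse below both WT mice. The 5 B cell markers summed to 5303 to 9495 in Sle1.3/E2-2het mice, 6712 to 8926 in Sle1.3 mice and 7359 to 8405 in WT mice. The part of these shifts in the receptor gene values was not tested.

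E proteins such as E2-2 bind E-box sequences, so the promoters of the receptor genes were read for them. RefSeq promoter entries (build GRCm38.p6) were matched for 5 of the 9 genes by symbol, with 6 entries in all because Syk has 2. The 250 bases before the annotated start of 4 genes follow, 5′ to 3′ on the gene's strand, with each match to CANNTG, which reads the same on both strands, in capitals. Cd79a (chr7:24897247-24897496, plus strand) and Cd22 (chr7:30879029-30879278, minus strand) are shown as a receptor chain and its inhibitor, and Blnk (chr19:40994222-40994471, minus strand) and Btk (chrX:134583141-134583390, minus strand) as the adaptor and the kinase it gathers.
Cd79a: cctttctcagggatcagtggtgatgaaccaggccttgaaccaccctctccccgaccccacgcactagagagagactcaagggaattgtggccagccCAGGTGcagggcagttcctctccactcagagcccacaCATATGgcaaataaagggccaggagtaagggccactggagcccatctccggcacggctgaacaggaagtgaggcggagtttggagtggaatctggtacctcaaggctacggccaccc
Cd22: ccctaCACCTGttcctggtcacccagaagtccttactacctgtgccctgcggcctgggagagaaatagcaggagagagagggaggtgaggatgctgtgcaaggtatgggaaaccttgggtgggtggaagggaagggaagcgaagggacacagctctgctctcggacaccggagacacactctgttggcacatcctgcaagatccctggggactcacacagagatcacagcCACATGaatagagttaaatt
Blnk: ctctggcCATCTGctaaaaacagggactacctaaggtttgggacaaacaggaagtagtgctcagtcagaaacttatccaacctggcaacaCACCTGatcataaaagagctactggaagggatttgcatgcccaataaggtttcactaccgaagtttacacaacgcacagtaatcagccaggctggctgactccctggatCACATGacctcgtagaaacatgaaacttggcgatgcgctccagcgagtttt
Btk: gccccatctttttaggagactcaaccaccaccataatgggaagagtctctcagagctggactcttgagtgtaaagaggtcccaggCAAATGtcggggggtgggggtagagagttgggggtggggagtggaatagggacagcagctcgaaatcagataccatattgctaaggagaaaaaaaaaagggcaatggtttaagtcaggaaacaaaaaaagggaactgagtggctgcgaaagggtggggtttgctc
The letters CANNTG occur in all 6 entries, and in 66.2% of all 32851 promoter windows of that length. The form CAGGTG, read on either strand as CAGGTG or CACCTG, is a subset of these matches and a sequence that E proteins are known to prefer. It is in the windows of Cd79a, Cd22, Blnk and Syk, in both entries of Syk, and not in that of Btk, against 17.2% of all windows. The form CAGCTG, also a subset, is in none of the 6 and in 13.0% of all windows. The octamer ATGCAAAT, read on either strand, is in the Blnk window alone and in 1.60% of all windows. A match is a description of the letters and not a bound site. Cd79a, Cd22, Blnk and Syk, with the CAGGTG form, had differences, Sle1.3/E2-2het minus Sle1.3, of 0.03, -0.47, -0.39 and -0.22, and Btk, without it, had 0.03. None of these differences was called, and their relation to the CAGGTG form was not tested.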

How the data were processed

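Splenocyte RNA of 8 mice (3 Sle1.3/E2-2het, 3 Sle1.3 and 2 WT, by the sample titles) was measured on Affymetrix Mouse Gene 1.0 ST arrays, 1 per mouse. The authors deposited linear intensity values for 35556 probe sets. RMA and Affymetrix Expression Console are named per the submitters' processing notes, while their versions, order and background steps are not given in the sources used here. The array spreads differed, so the deposited intensity values did not share 1 distribution over all 8 arrays.

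Probe sets assigned to 1 gene symbol (21789) were kept, those with several (1621) or none (12146) were left out, and the row with the highest mean stood for each of 19938 genes. Log2 was taken, and genes with a mean above the 25th percentile (14953) entered limma 3.58.1, run under R 4.3.3 with lmFit and eBayes for two-sided tests. Group and array set were the terms of 1 model over the 8 arrays, with 4 residual degrees of freedom, and p-values were Benjamini-Hochberg adjusted over all tested genes with a threshold of 0.05. The array sets were read from the lowest intensity of each array, split at the largest gap. Labelled sex was not a covariate because Xist went against 1 label. The fit was tested on simulated data.

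The genes and lists were chosen with earlier results of these data known, and the array set was read from the data. Named were all receptor genes and, of each signalling list and comparison, up to 6 genes past the threshold with the smallest p, or 3 where none passed. Of cell marker lists only sums and counts were given, and of other genes the 5 most correlated with the receptor genes, and Xist and Tcf4 as label checks. Within the Sle1.3/E2-2het and Sle1.3 groups, deviations from the group mean of arrays with the same number correlated at 0.573, 0.369 and 0.618, so the numbers were taken to pair these arrays. Arrays with unlike numbers correlated at -0.536 to 0.119. The third pair is also the second array set, so pairing and array set cannot be told apart in its 0.618. The alternatives (19) covered covariates, normalization, filters, the offset, probe set choice and leaving out each array.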

Additional observations from a re-analysis of the deposited data

How the results depend on the processing

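Against WT the receptor gene counts (5 of 8 in Sle1.3/E2-2het, 3 of 8 in Sle1.3) depended on the array comparison. In Sle1.3/E2-2het against WT the count was 0 with no array set term, 0 with labelled sex, 0 with centring on B cell markers and 1 after quantile normalization, and in Sle1.3 against WT it was 0 under all 4. Of all tested genes 7.2%, 3.29%, 28.5% and 13.8% were called in either direction in Sle1.3/E2-2het against WT (main 34.1%). In Sle1.3 against WT these shares were 5.88%, 1.33%, 13.9% and 12.4% (main 24.0%). In the signalling lists, the counts for Sle1.3/E2-2het against WT were 3, 2, 5 and 4 in the same order (main 18), and for Sle1.3 against WT 2, 1, 5 and 5 (main 10). In Sle1.3/E2-2het against Sle1.3 the list count was 1 (Rasgrp3) with the replicate block, in the first set alone and after quantile normalization (main 0). Of all tested genes 1.75%, 0.589% and 0.522% were called there (main 0.615%). With the replicate block the receptor gene counts were 5 and 4 against WT and 0 between the lupus genotypes, against 40.2%, 29.5% and 1.75% of all tested genes called. Pairing by number was examined between the lupus genotypes only, and not for the WT arrays in that block. The cause of these changes was not tested. The counts with B cell centring say nothing of stability, since limma then used 1 common variance for all genes. Leaving out each array gave receptor gene counts of 2 to 6, 1 to 3 and 0 to 0, and list counts of 8 to 18, 3 to 10 and 0 to 1, for Sle1.3/E2-2het against WT, Sle1.3 against WT and Sle1.3/E2-2het against Sle1.3. The shares of all tested genes called in those fits were not computed.

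The sign turned only for differences that were not called. In Sle1.3/E2-2het against Sle1.3 these were Cd79a (-0.11 in the first set, -0.0084 with median centring, -0.11 to 0.13 leaving out arrays), Cd79b (0.0284 with labelled sex, 0.0653 with B cell centring, -0.21 to 0.0069), Btk (-0.0414 in the first set, -0.0070 with median centring, -0.0414 to 0.0858) and Blk (-0.31 to 0.0083). In Sle1.3/E2-2het against WT, B cell centring turned Cd79b (0.0689), Ms4a1 (0.33) and Blnk (0.0429), and leaving out arrays gave Ms4a1 -0.21 to 0.0641. In Sle1.3 against WT these were Cd79b (0.0036 with B cell centring), Cd22 (0.0871 with no array set term, 0.0718 with labelled sex, 0.16 after quantile normalization, 0.21 with B cell centring, -0.21 to 0.0582 leaving out arrays) and Blnk (-0.0086 with labelled sex, -0.0251 with median centring, -0.0431 to 0.12). No background level came with the arrays, so signal over background could not be given.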
